A study of Mus musculus with 12 samples.

Results

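The genes described here are the collagen chain genes, taken as every gene name on the array that begins with Col, a number, the letter a and a number. The pattern matched 41 of the 27962 gene names, carried by 82 probes on 100 spots. It took in 40 collagen chains and 1 gene that is no collagen, Col4a3bp, which encodes the ceramide transfer protein. Each gene was read from its brightest probe over both channels, a choice that does not use the ratio between tumor and pool. By that probe, 38 of the 41 genes passed the filter on dim probes, 37 of them chains. Col4a3, Col23a1 and Col24a1 did not pass.

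Tumor RNA from 8 mouse mammary tumors labelled ShcA-null was hybridised on dual-colour arrays, each array carrying 1 tumor beside the same pool of NIC tumors. ShcA is the adaptor protein encoded by Shc1, and the NIC model, known in full as MMTV-NIC, makes activated Neu (ErbB2) and Cre recombinase from the same transcript in mammary epithelium, so that deletion of a floxed gene is limited to cells that use the MMTV promoter and stromal cells keep the gene. By their labels, the ShcA-null tumors and the pool therefore share the NIC transgene and differ in Shc1. The first array of each tumor carried the tumor in Cy5, and tumors 1 to 4 had a second, dye-swapped array with the tumor in Cy3, which makes 12 arrays. The sources used here give no ages, strain or number of animals in the pool, and the pool counts as 1 control RNA whose own spread was not measured. Values below are log2 ratios of tumor over pool. In whole tumors, fewer cells of a type and less RNA per cell cannot be told apart.

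Collagens are proteins built of 3 chains wound into a triple helix, in which glycine recurs at a fixed step so that the chains can pack. Fibril-forming chains make the rope-like fibrils that fibroblasts lay down in connective tissue, type IV chains make the sheet-like network of basement membranes under epithelia and around vessels, and type VI chains make beaded filaments between these. Other chains anchor, coat or link these structures, and some span the cell membrane. In a mammary tumor the basement membrane borders the epithelial cells, while most fibrillar collagen comes from the stroma.

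The glycine repeat can be read in the probes themselves. Of 41174 gene probes searched, 3 held an open reading frame in which a GGN codon, which encodes glycine, came at each step of 3 codons, and all 3 belonged to collagen genes. They are shown here because they carry the feature that defines the family, with the GGN codons in capitals and coordinates from the array files on build mm7. None of them is the brightest probe of its gene.
Col11a2 (chr17:32131401-32131567, plus strand): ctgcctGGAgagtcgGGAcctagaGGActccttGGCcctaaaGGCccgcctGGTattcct
Col5a1 (chr2:27994034-27996457, plus strand): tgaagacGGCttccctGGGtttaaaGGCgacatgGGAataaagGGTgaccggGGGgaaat
Col5a3 (chr9:20655471-20656200, minus strand): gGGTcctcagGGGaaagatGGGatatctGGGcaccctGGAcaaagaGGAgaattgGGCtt

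The type IV genes lie in the genome as head-to-head pairs. Promoters are shown for Col4a1 with Col4a2 and for Col4a5 with Col4a6, because these genes were higher in the tumors. Col4a3 and Col4a4 are not shown, and of these Col4a3 was not tested and Col4a4 was not called. In RefSeq windows of build GRCm38.p6, which run from 250 bases before a start site to 50 after it, the start sites of Col4a1 and Col4a2 lay 21 bases apart on opposite strands of chromosome 8. The windows share 78 bases, printed in capitals, so that each sequence ends in the reverse complement of the other's end.
Col4a1 (chr8:11312777-11313076, minus strand): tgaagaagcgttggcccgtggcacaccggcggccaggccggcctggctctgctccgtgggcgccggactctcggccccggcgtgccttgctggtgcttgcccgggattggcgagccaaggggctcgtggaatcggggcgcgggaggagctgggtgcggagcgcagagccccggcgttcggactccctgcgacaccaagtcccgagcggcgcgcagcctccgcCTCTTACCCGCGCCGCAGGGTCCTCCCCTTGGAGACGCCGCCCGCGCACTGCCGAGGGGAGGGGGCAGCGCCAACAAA
Col4a2 (chr8:11312555-11312854, plus strand): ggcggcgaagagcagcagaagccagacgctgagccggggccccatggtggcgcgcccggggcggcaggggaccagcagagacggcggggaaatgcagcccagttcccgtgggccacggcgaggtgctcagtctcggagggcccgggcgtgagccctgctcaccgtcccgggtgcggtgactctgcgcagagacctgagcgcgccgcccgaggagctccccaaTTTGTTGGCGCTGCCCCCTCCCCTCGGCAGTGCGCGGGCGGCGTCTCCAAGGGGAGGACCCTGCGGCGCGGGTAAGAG

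The start sites of Col4a5 and Col4a6 lay 1343 bases apart on chromosome X, again on opposite strands. Here capitals mark the CCAAT and GGGCGG motifs on either strand.
Col4a5 (chrX:141475169-141475468, plus strand): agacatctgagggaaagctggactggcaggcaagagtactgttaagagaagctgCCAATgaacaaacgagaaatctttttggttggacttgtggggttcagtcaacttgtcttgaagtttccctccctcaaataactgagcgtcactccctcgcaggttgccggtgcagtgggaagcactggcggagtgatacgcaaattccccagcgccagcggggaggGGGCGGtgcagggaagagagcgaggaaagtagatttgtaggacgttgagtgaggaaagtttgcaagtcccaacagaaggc
Col4a6 (chrX:141474027-141474326, minus strand): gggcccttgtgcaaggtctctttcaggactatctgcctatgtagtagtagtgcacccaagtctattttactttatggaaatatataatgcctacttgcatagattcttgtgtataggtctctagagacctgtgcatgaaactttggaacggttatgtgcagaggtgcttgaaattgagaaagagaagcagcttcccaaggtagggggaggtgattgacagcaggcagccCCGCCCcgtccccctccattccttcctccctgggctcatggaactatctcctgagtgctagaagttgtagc

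Of the 41 genes, 32 had a RefSeq window, with 35 windows in all. GGGCGG, searched on both strands as GGGCGG or CCGCCC, was in 20 of these 35 windows, against 35.7% of all 32851 windows. CCAAT (or ATTGG) was in 12 of 35, against 37.4% of all windows, and TATAAA (or TTTATA) in 5 of 35, against 13.6%. All 4 type IV windows printed above held GGGCGG, and none of them held TATAAA. The only GGGCGG match of the Col4a1 window lies in the bases shared with Col4a2, so it counts for both genes. The window of Col4a4, not printed, held none of these motifs. The 5 with TATAAA were those of Col3a1, Col10a1, Col11a2, Col13a1 and Col17a1. These matches describe the letters in the windows only.

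Some arrays went against their labels. Over all genes the swapped array labelled tumor 2 correlated best with the first array of tumor 3 (r = 0.82) and at 0.14 with the first array of its own label, the one labelled tumor 3 correlated best with tumor 4 (0.39), and the one labelled tumor 4 with tumor 8 (0.68), against 0.13 and 0.29 with the first arrays of their own labels. Only the swapped array labelled tumor 1 matched its own tumor best (0.44). Values per tumor are therefore given from the first arrays, with the swapped arrays apart, while means use both arrays of a tumor as labelled. If labels of swapped arrays are wrong, those means mix tumors, and the 8 samples behind each SD and p-value are not independent. For tumors 1 to 8 in turn, Shc1 had log2 ratios of 0.41, -0.02, -2.05, 0.58, 0.71, 0.26, 0.52 and 0.30 on first arrays. The swapped arrays with labels 1 to 4 gave 0.58, -2.23, 0.74 and 0.45. Shc1 was thus over 2-fold below the pool only on the first array of tumor 3 and the swapped array labelled tumor 2. Whether its probe lies in the deleted part is unknown, and a probe outside that part would check nothing, so all 8 tumors are called ShcA-null as labelled. The swapped arrays share a slide, so dye orientation and slide cannot be told apart. In a fit with a dye term that paired swapped arrays with their best match, 67.6% of all genes tested and 21 of the 38 collagen genes differed between the orientations (limma, adjusted p under 0.05).

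Among the 38 genes tested, 5 were higher and 2 lower in the ShcA-null tumors than in the pool (limma, Benjamini-Hochberg adjusted p under 0.05 over 20499 genes). The genes that rose were Col4a1, Col4a2, Col4a5 and Col4a6 of the basement membrane network and Col6a2 of the beaded filaments. Those that fell were Col7a1, the anchoring fibril chain, and Col10a1, the short chain of hypertrophic cartilage. Over all genes, 17.1% were called in either direction, 7.33% as higher and 9.79% as lower, and the collagen count lies near these shares. The median of the 38 mean log2 ratios was 0.11, against 0.00 over all genes tested. The median SD between tumors was 0.80 for the collagen genes, against 0.47 over all genes. With median centring in place of loess, which moved the median of all genes to 0.18, 6 collagen genes were called higher and 2 lower, against 13% and 4.56% of all genes (2668 higher and 935 lower, where loess gave 1503 and 2006). With the authors' value table in place of the scanner intensities, 6 collagen genes were called higher and 3 lower, against 9.69% and 10.2% of all genes, and these included the same 7 with Col17a1 and Col11a1 added.

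**Figure D1:**
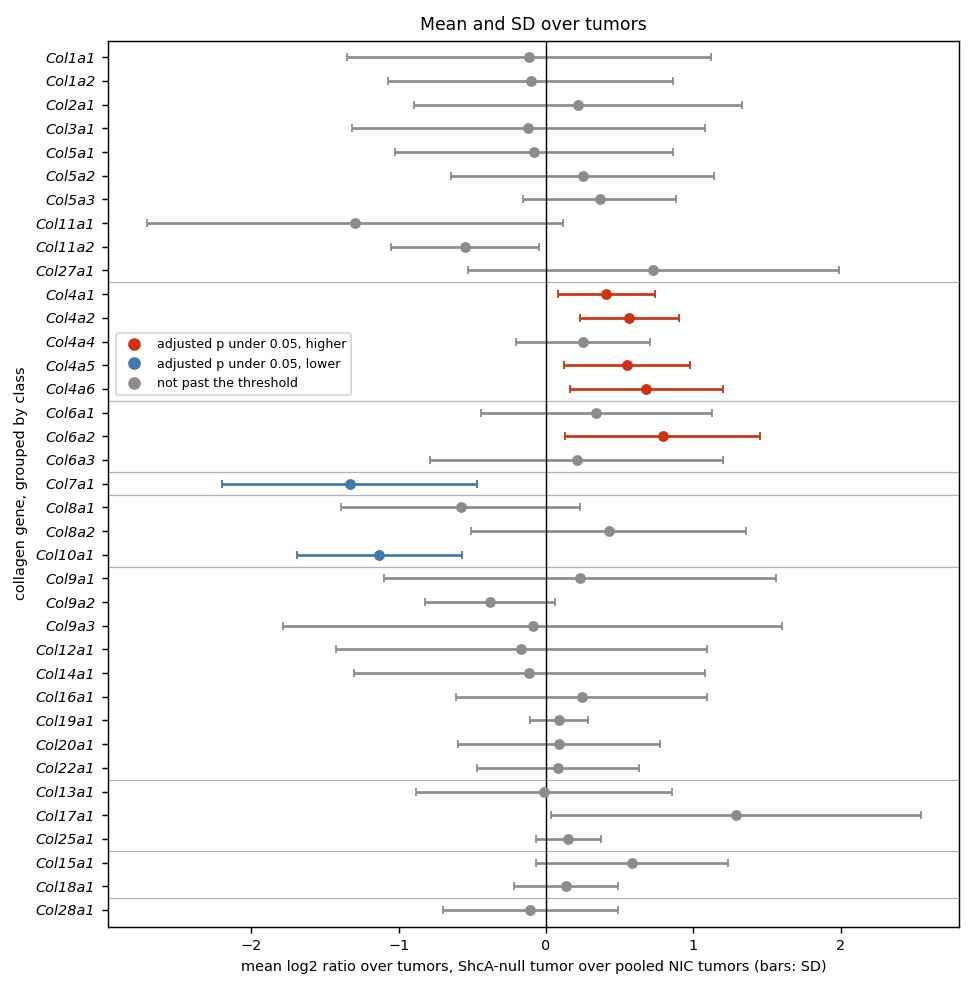
Mean log2 ratio of ShcA-null tumor over pooled NIC tumors for the 37 collagen chains tested (horizontal axis; points are means over tumors and bars are SD), grouped by class down the page with lines between classes. Red points mark the 5 genes called higher, 4 of them in the basement membrane class, and blue points the 2 called lower, Col7a1 at -1.33 and Col10a1 at -1.13; grey points did not pass an adjusted p of 0.05, and most of their SD bars cross 0.

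Of the 6 type IV genes, 5 were tested and 4 of these rose, against 7.33% of all genes called higher; the median of the 5 means was 0.55. Col4a1 and Col4a2 encode the chains of the common basement membrane network, found under nearly all epithelia and endothelia. Col4a3, Col4a4, Col4a5 and Col4a6 encode chains of more restricted networks, in kidney, smooth muscle and some epithelia. On every array, first or swapped, the median of the 5 type IV genes lay above 0, from 0.28 to 0.67 over first arrays and from 0.35 to 0.82 over swapped ones.

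Col4a2 (probe at chr8:11416851-11416910 on mm7) had a lowest log2 ratio of -0.15, a median of 0.77 and a highest of 1.17 over the first arrays of the 8 tumors. Tumor 6 was the only one below the pool, and all 4 swapped arrays lay above it, between 0.03 and 0.63. Its mean was 0.57 ± 0.33 (SD, n = 8), with an adjusted p of 0.0156 in limma. By slide it averaged 0.92 on the first arrays of tumors 1 to 4, 0.50 on those of tumors 5 to 8 and 0.34 on the swapped arrays. Its orientations differed by 0.60 (Cy5 minus Cy3; limma adjusted p = 3.44e-06). Once this difference was fitted, Col4a2 averaged 0.41 and was not called (limma adjusted p = 0.0876). The gene's other probe, which is dimmer, gave -0.20 ± 1.62 (SD, n = 8), and with all kept probes averaged Col4a2 was no longer called (0.18, adjusted p = 0.678 in limma).

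Col4a1 (chr8:11167020-11167079 on mm7) had a lowest value of -0.14, a median of 0.38 and a highest of 0.92 over the first arrays. Tumors 1 and 5 lay just below the pool and the other 6 above it, as did the 4 swapped arrays, between 0.35 and 0.82. Its mean was 0.41 ± 0.33 (SD, n = 8), with an adjusted p of 0.0493 in limma, close to the threshold; leaving out tumor 1, 2, 3, 4, 7 or 8 took it past 0.05, with adjusted p-values up to 0.119. Its orientations differed by -0.32 (Cy5 minus Cy3; limma adjusted p = 0.000671). Once this difference was fitted, Col4a1 averaged 0.49 and just missed the threshold (limma adjusted p = 0.0503). Its dimmer probe stood higher, at 1.11 ± 0.29 (SD, n = 8).

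Col4a6 (chrX:135829764-135829823 on mm7) ran over the first arrays from a lowest value of 0.05 through a median of 0.43 to a highest of 1.52. It lay above the pool on all 8 first and all 4 swapped arrays, and tumors 6 and 3 stood highest. Its mean was 0.68 ± 0.52 (SD, n = 8; limma adjusted p = 0.0262). Without tumor 2, 3 or 4 the adjusted p was 0.0615, 0.0665 or 0.0523 in limma. Its orientations differed by -0.28 (Cy5 minus Cy3; limma adjusted p = 0.00471). Once this difference was fitted, Col4a6 averaged 0.80 and was still called (limma adjusted p = 0.013). Its 2 other probes averaged 0.33 ± 1.69 and 0.80 ± 0.53 (SD, n = 8 each).

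Col4a5 (chrX:136352769-136352828 on mm7) had a lowest value of -0.15, a median of 0.09 and a highest of 1.15 over the first arrays. There 7 of the 8 tumors lay within 0.43 of the pool and tumor 6 stood apart above them, whereas the 4 swapped arrays all lay between 1.02 and 1.48. Its mean over both kinds of array was 0.55 ± 0.43 (SD, n = 8; limma adjusted p = 0.0333), and 0.25 on the first arrays alone (limma adjusted p = 0.247). The difference between orientations was -1.32 (Cy5 minus Cy3; limma adjusted p = 5.76e-09), so the size of this gene's change depends on which arrays are read. Without tumor 1, 2, 3, 4 or 7 its adjusted p lay between 0.0584 and 0.0809 in limma.

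Col4a4 (chr1:82661529-82661590 on mm7) was the type IV gene tested that did not pass, at 0.25 ± 0.45 (SD, n = 8; limma adjusted p = 0.289). Its orientations pointed in opposite directions: 7 of 8 first arrays lay above the pool, up to 1.27, and all 4 swapped arrays lay below it, between -0.96 and -0.47. Its dimmer probe averaged -0.69 ± 1.04 (SD, n = 8). Col4a3 was not well above background in enough tumors to be tested. Col4a3bp, the ceramide transfer protein, lay at -0.24 ± 0.19 (SD, n = 8; limma adjusted p = 0.11).

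**Figure D2:**
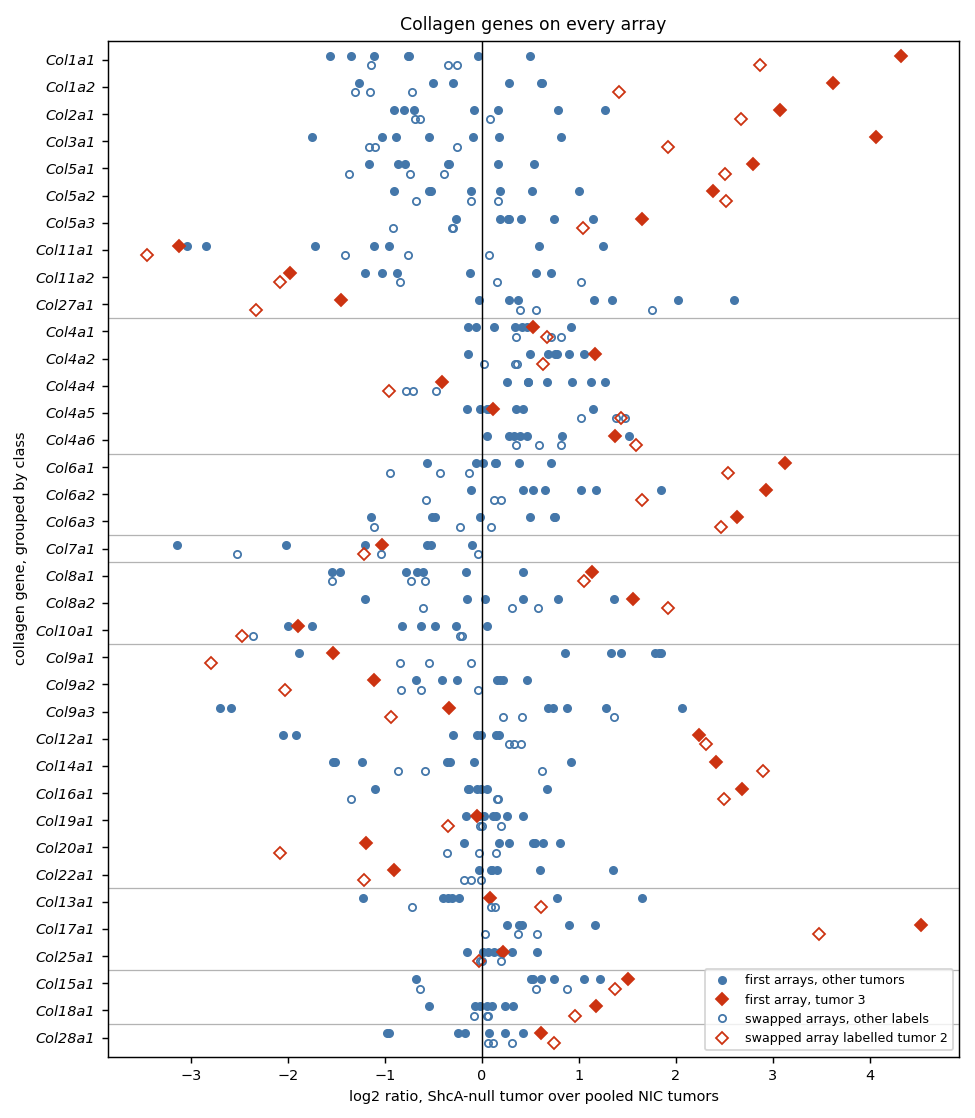
Log2 ratio of ShcA-null tumor over pooled NIC tumors (horizontal axis) for each of the 37 collagen chains tested on each array, grouped by class down the page; filled symbols are first arrays, open symbols are swapped arrays, and red diamonds are the first array of tumor 3 and the swapped array labelled tumor 2. The red diamonds stand far right of the other points for Col1a1, Col3a1, Col5a1, Col6a1 and Col17a1 and on the left for Col11a1, Col11a2 and Col27a1; the open symbols of Col4a5 lie together between 1.02 and 1.48.

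The 3 beaded filament chains, which assemble with each other into type VI collagen, all had means above 0, and Col6a2 passed the test. Col6a2 (chr10:76251837-76251896 on mm7) had a lowest value of -0.11, a median of 0.84 and a highest of 2.93 over the first arrays. Tumor 6 lay just below the pool and tumor 3 highest, while the swapped arrays ran between -0.57 and 1.65. Its mean was 0.79 ± 0.66 (SD, n = 8; limma adjusted p = 0.0321), and its dimmer probe gave 0.33 ± 0.74 (SD, n = 8). The brightest probe averaged 1.06 on first arrays and 0.35 on swapped ones. Its orientations differed by 1.02 (Cy5 minus Cy3; limma adjusted p = 8.76e-06). Once this difference was fitted, Col6a2 averaged 0.55 and was not called (limma adjusted p = 0.214). Without the first array of tumor 3 and the swapped array labelled tumor 2, its mean was 0.55 (limma adjusted p = 0.0837), and leaving out any tumor but tumor 6 took its adjusted p past 0.05, to at most 0.0762.

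Col6a1 (chr10:76364050-76364109 on mm7) had a lowest value of -0.57, a median of 0.14 and a highest of 3.12, and tumor 3 stood far above the other 7 tumors, which reached 0.72. Its mean was 0.34 ± 0.78 (SD, n = 8; limma adjusted p = 0.36), and -0.012 without the 2 arrays that stand apart. Col6a3, the chain with the longest globular part, had a lowest value of -1.14, a median of 0.24 and a highest of 2.63, again in tumor 3. Its mean was 0.21 ± 0.99 (SD, n = 8; limma adjusted p = 0.664).

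Of the 11 fibril-forming genes, 10 were tested and none was called (limma; 17.1% of all genes in either direction); the median of their means was -0.09. On the first arrays, tumor 3 was the highest for 7 of the 10 and the lowest for the other 3, against 21.3% and 18.0% of all genes tested. Col1a1, the main chain of type I collagen and so of most fibrils, had a lowest value of -1.57, a median of -0.75 and a highest of 4.32 over the first arrays. The highest was tumor 3, a 20.0-fold ratio, while tumors 6 and 7 lay near the pool and the other 5 below it. The swapped array labelled tumor 2 stood at 2.87, and the other 3 swapped arrays between -1.14 and -0.25. Its mean was -0.12 ± 1.24 (SD, n = 8; limma adjusted p = 0.853), and -0.63 without the 2 arrays that stand apart (limma adjusted p = 0.0782). The next brightest probe of Col1a1 had the opposite sign, at 0.48 ± 1.10 (SD, n = 8).

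Col1a2, which supplies the other chain of type I collagen, was measured on 7 first arrays, with a lowest value of -1.27, a median of 0.28 and a highest of 3.62. Tumor 3 was highest again; the swapped arrays lay at -1.16, 1.41, -0.72 and -1.30. Its mean was -0.10 ± 0.97 (SD, n = 8; limma adjusted p = 0.833). Col3a1, the fibril chain of distensible tissues and healing wounds, had a lowest value of -1.75, a median of -0.32 and a highest of 4.07 over the first arrays. The next tumor below tumor 3 was tumor 6, at 0.81. The mean of Col3a1 was -0.12 ± 1.20 (SD, n = 8; limma adjusted p = 0.844).

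Col5a1 and Col5a2 encode the chains of type V collagen, which sits inside type I fibrils and limits their width. Col5a1 had a lowest value of -1.16, a median of -0.34 and a highest of 2.79, and a mean of -0.08 ± 0.94 (SD, n = 8, limma adjusted p = 0.871). The dimmer probe of Col5a1 had the opposite sign, at 0.37 ± 0.40 (SD, n = 6). Col5a2 had a lowest value of -0.90, a median of 0.04 and a highest of 2.38, and a mean of 0.25 ± 0.90 (SD, n = 8; limma adjusted p = 0.558). In both genes tumor 8 was lowest and tumor 3 highest, and the swapped array labelled tumor 2 stood at 2.51 and 2.52. Col5a3 and the cartilage fibril chain Col2a1 also had tumor 3 highest, at 1.65 and 3.07. Col2a1 averaged 0.22 ± 1.11 (SD, n = 8) and was not called, while its dimmer probe averaged 1.45 ± 0.38 (SD, n = 4), with a limma adjusted p of 0.011 over all kept probes.

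Not every fibril-forming gene followed that order. Col11a1, which encodes the cartilage counterpart of a type V chain, had a lowest value of -3.12 in tumor 3, a median of -1.42 and a highest of 1.25 in tumor 6. Its mean was -1.30 ± 1.41 (SD, n = 8; limma adjusted p = 0.0676), while its dimmer probe averaged -1.93 ± 0.79 (SD, n = 8) with a limma adjusted p of 0.003 over all kept probes. Col11a2 lay at -0.55 ± 0.50 (SD, n = 8; limma adjusted p = 0.0516), with tumor 3 lowest at -1.98. Col27a1 lay at 0.73 ± 1.26 (SD, n = 8; limma adjusted p = 0.218), with tumor 3 at -1.45 and tumor 8 at 2.60. Its other 2 kept probes pointed the other way, at -0.21 ± 1.77 (SD, n = 8) and at -1.10 in the 1 tumor measured. Col24a1, which was not tested, stood at 2.48 on the first array of tumor 3 and 2.69 on the swapped array labelled tumor 2, and between -0.32 and 0.87 on the others.

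Across classes, 28 of the 38 genes were past 2-fold on the first array of tumor 3, 20 of them above and 8 below the pool, where 21.5% of all genes tested were past 2-fold. On the swapped array labelled tumor 2 the number was 28 again, against 24.4% of all genes. Between 4 and 16 collagen genes were past 2-fold on the other first arrays. These had 9 in tumor 1 (14.3% of all genes), 4 in tumor 2 (7.41%), 5 in tumor 4 (10.1%), 4 in tumor 5 (8.39%), 15 in tumor 6 (34.3%), 7 in tumor 7 (22.7%) and 16 in tumor 8 (14.6%). The swapped arrays labelled tumors 1, 3 and 4 had 5 (6.3%), 2 (9.56%) and 12 (12.9%). Tumor 6 thus had more genes of all kinds past 2-fold than tumor 3, but fewer collagen genes. Tumor 3 was the highest of the first arrays for 20 of the 38 genes and the lowest for 7, against 21.3% and 18.0% of all genes.

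The fibroblast markers moved with the fibrillar genes. All 10 of them were highest on the first array of tumor 3 among the first arrays; their median there was 2.35, against -0.71 to 0.48 on the other first arrays, and it was 2.06 on the swapped array labelled tumor 2. The median of the fibril-forming genes was 2.59 on the first array of tumor 3 and between -1.10 and 0.66 on the other first arrays. Over the 8 tumors, 0 of 10 fibroblast markers were called (limma, 17.1% of all genes), from Clec3b at -0.36 ± 0.57 to Fbln1 at 0.73 ± 0.83 (SD, n = 8 each). On the same array the medians of the other marker lists were 4.19 for skeletal muscle, 3.74 for basal epithelium, 1.79 for leukocytes, 1.17 for endothelium, 1.15 for smooth muscle and pericytes, 0.99 for luminal epithelium and 0.73 for adipocytes. The cartilage and bone list and the Schwann cell list lay below the pool there, both at -0.28. Among the first arrays, the luminal median was highest in tumor 2, at 1.64, and the adipocyte median in tumor 7, at 1.57. The part of these cells in the collagen values was not tested.

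**Figure D3:**
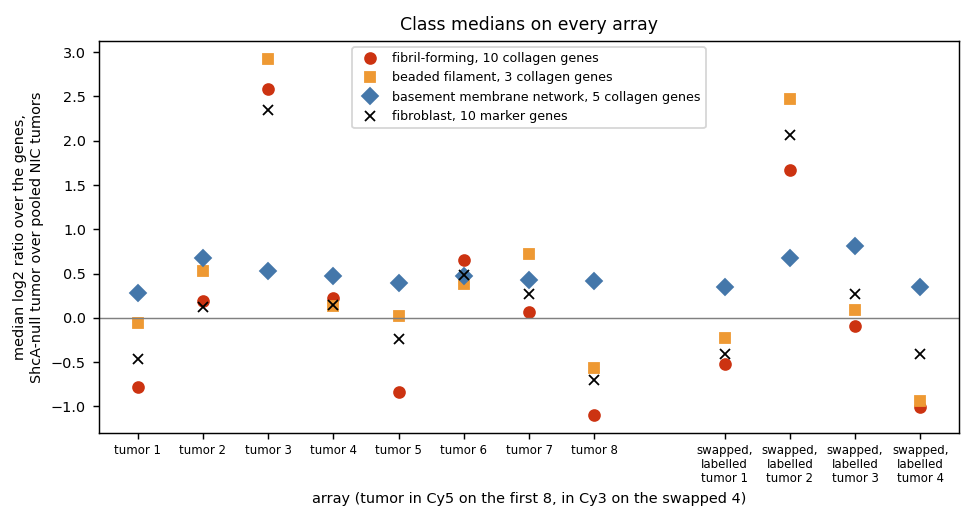
Median log2 ratio of ShcA-null tumor over pooled NIC tumors (vertical axis) on each of the 12 arrays for 3 collagen classes and for the fibroblast markers; each symbol is the median over the genes of 1 list on 1 array. The medians of fibril-forming genes, beaded filament genes and fibroblast markers peak together at 2.59, 2.93 and 2.35 on the first array of tumor 3. They peak again on the swapped array labelled tumor 2, while the basement membrane median stays between 0.28 and 0.82 on every array. Single basement membrane genes range more widely: on the swapped arrays Col4a4 lies between -0.96 and -0.47 and Col4a5 between 1.02 and 1.48.

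The anchoring fibril gene Col7a1, whose product ties the basement membrane of stratified epithelia to the stroma beneath, fell. Its probe (chr9:108695073-108695132 on mm7) was measured on 7 first arrays, with a lowest value of -3.14, a median of -1.03 and a highest of -0.10. It lay below the pool on all 7 and on all 4 swapped arrays, from -2.53 to -0.04, and tumors 6 and 8 stood lowest. Its mean was -1.33 ± 0.87 (SD, n = 8; limma adjusted p = 0.0116), a 2.52-fold lower level. The 2 arrays that stand apart were not extreme here, at -1.03 and -1.21, and without them the mean was -1.23 (limma adjusted p = 0.0256). On the first arrays without tumor 3 the adjusted p was 0.057 in limma, at a mean of -1.26.

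Of the 3 short-chain genes, Col10a1 was called lower. Type X collagen is known from hypertrophic cartilage. Its probe (chr10:34176400-34176459 on mm7) had a lowest value of -1.99, a median of -0.73 and a highest of 0.05 over the first arrays. It was above the pool in tumor 4 alone and below it on all 4 swapped arrays, between -2.48 and -0.20. Its mean was -1.13 ± 0.56 (SD, n = 8; limma adjusted p = 0.00503), and the tumor signal was well above background on 10 of 12 arrays, against 12 of 12 for the pool. Among the cartilage and bone markers, Bglap fell too, at -0.90 ± 0.41 (SD, n = 8, limma adjusted p = 0.0049). Of the 4 tested, 3 were not called and 2 had means above the pool, up to 0.11. The part of these markers in the Col10a1 value was not tested. Col8a1 and Col8a2, which form the hexagonal network of vessel walls and of Descemet's membrane, were not called, with means of -0.58 and 0.43. The dimmer probe of Col8a1 had the opposite sign, at 0.39 ± 0.96 (SD, n = 8).

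Of the 4 transmembrane chains, 3 were tested and none was called, against 17.1% of all genes. Col17a1 encodes a hemidesmosome protein of basal epithelial cells. It was measured on 6 first arrays, with a lowest value of 0.26, a median of 0.66 and a highest of 4.52 in tumor 3, a 23.0-fold ratio. All 6 lay above the pool, as did the 4 swapped arrays, of which the one labelled tumor 2 stood at 3.48 and the others between 0.03 and 0.57. Col17a1 averaged 1.29 ± 1.25 (SD, n = 7; limma adjusted p = 0.0604). Without the 2 arrays that stand apart the mean was 0.60 (limma adjusted p = 0.0432), and in the authors' value table it was 1.20 (limma adjusted p = 0.013). Col13a1 and Col25a1, transmembrane chains of muscle junctions and of nerve cells, had means of -0.01 and 0.15. Col23a1 did not pass the filter on its brightest probe. Dimmer probes of Col23a1 did pass it, at 0.30 ± 0.43 and 0.31 ± 0.37 (SD, n = 8 each). Over all kept probes their limma adjusted p-values were 0.215 and 0.155.

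The basal keratins were highest on the same array. On the log2 scale Krt5 rose by 1.33 ± 0.65 (SD, n = 7; limma adjusted p = 0.00661) and Krt14 by 0.89 ± 0.61 (SD, n = 8; limma adjusted p = 0.016). On the first array of tumor 3 Krt14 stood at 3.67. Of the 4 basal markers, 2 were called higher, against 7.33% of all genes, and 4 were highest on that array, against 21.3% of all genes, and their part in the Col17a1 value was not tested.

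Both multiplexins, Col15a1 and Col18a1, are proteoglycans of basement membrane zones whose ends can be cut off as endostatin-like fragments. Col18a1 had a lowest value of -0.54, a median of 0.08 and a highest of 1.18 over the first arrays, and a mean of 0.14 ± 0.35 (SD, n = 8; limma adjusted p = 0.477). Its dimmer probe averaged 0.45 ± 0.26 (SD, n = 8), with a limma adjusted p of 0.027 over all kept probes. Col15a1 lay above the pool in every tumor but tumor 8 on the first arrays and averaged 0.59 ± 0.65 (SD, n = 8; limma adjusted p = 0.0847). Its dimmer probe averaged 0.93 ± 0.85 (SD, n = 8), with a limma adjusted p of 0.046 over all kept probes.

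None of the 9 fibril-associated genes was called, against 17.1% of all genes. Their means lay between -0.38 for Col9a2 and 0.24 for Col16a1. Col12a1, Col14a1 and Col16a1, which coat the surface of fibrils in soft tissue, all had tumor 3 highest, at 2.24, 2.41 and 2.68. Col9a2, Col20a1 and Col22a1 had tumor 3 lowest of the first arrays, at -1.12, -1.19 and -0.90. The class median on that array was -0.33, and 6 of the 9 genes were lowest of the swapped arrays on the one labelled tumor 2. Col9a1, Col9a2 and Col9a3 make the type IX collagen of cartilage. Col9a1 turned with the dye orientation: 6 of 8 first arrays lay above the pool, up to 1.85, and the 4 swapped arrays were all below it, from -2.79 up to -0.11, a difference of 2.04 (Cy5 minus Cy3; limma adjusted p = 3.83e-06). Col9a3 spread widely on the first arrays, with a lowest value of -2.70 in tumor 6 and a highest of 2.06 in tumor 8. Col19a1, Col20a1, Col22a1 and the unclassed Col28a1 had means between -0.11 and 0.09.

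Chains that assemble into the same molecule were compared across the 8 tumors on the first arrays. Of 8 pairs, 5 had both genes measured on all 8 arrays; Col1a1 with Col1a2 and Col8a1 with Col8a2 each lacked a value, and Col4a3 was not kept. The p-values are exact and two-sided, over all pairings, and adjusted over the 5 pairs. Chains of different molecules were not correlated, so whether partner chains run more closely together than other collagen chains was not tested. Col1a1 and Col3a1, which belong to other molecules than Col5a1 and Col5a2, likewise had tumor 8 lowest and tumor 3 highest on the first arrays.

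Of the pairs tested, Col5a1 and Col5a2 ran together most closely, with Pearson's r = 0.98 (exact permutation p = 9.92e-05, adjusted 0.000496, n = 8) and Spearman's rho = 0.95 (exact permutation p = 0.00114, adjusted 0.00558). Without tumors 3 and 6, which lay farthest from the median of Col5a1, r was 0.98. Col6a1 and Col6a3 had r = 0.93 (exact permutation p = 0.00122, adjusted 0.00304, n = 8) and rho = 0.93 (exact permutation p = 0.00223, adjusted 0.00558), and r = 0.66 without tumors 3 and 8.

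Col6a1 and Col6a2 had r = 0.83 (exact permutation p = 0.0213, adjusted 0.0355, n = 8) but rho = 0.48 (exact permutation p = 0.243, adjusted 0.243). Without tumors 3 and 8 the r was 0.35, so that relation rests on those samples. For the head-to-head pair Col4a5 and Col4a6 the r was 0.70 (exact permutation p = 0.0472, adjusted 0.059, n = 8) and the rho 0.71 (exact permutation p = 0.0576, adjusted 0.096), with r = 0.65 without tumors 6 and 7. For Col4a1 and Col4a2 the r was 0.47 (exact permutation p = 0.247, adjusted 0.247, n = 8) and the rho 0.67 (exact permutation p = 0.0831, adjusted 0.104), with r = 0.77 without tumors 7 and 1. Thus a correlation was called for 1 type V and 2 type VI pairs, and for neither type IV pair.

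Within slides of 4 tumors no correlation was computed, since 4 samples are too few.

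**Figure D4:**
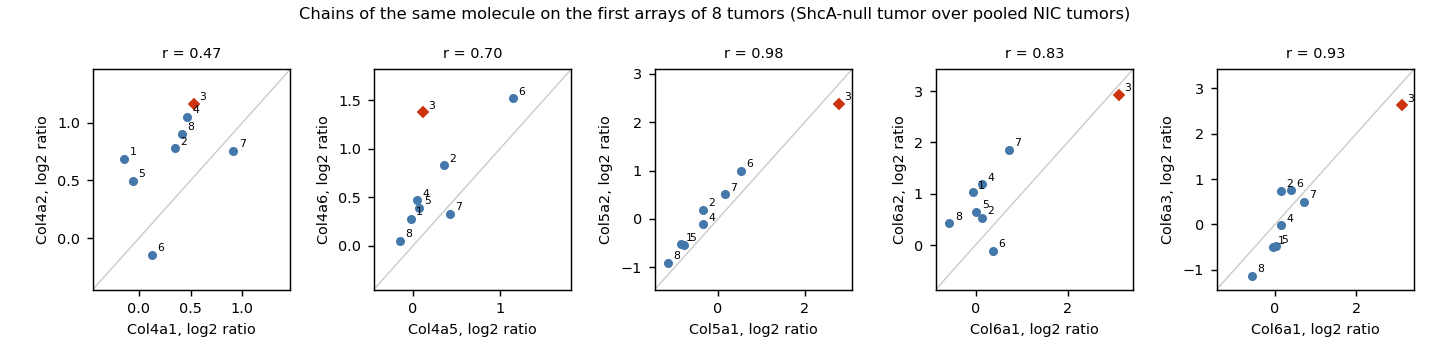
Log2 ratios of ShcA-null tumor over pooled NIC tumors for the 2 genes of each of 5 chain pairs (one gene per axis) on the first arrays of the 8 tumors; each point is a tumor with its number, the red diamond is tumor 3, and the grey line marks equal ratios. Col5a1 and Col5a2 lie along the line (r = 0.98), tumor 3 lies far from the others in the type V and type VI panels, and Col4a1 with Col4a2 scatter (r = 0.47).

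Genes that modify, cut, cross-link or sense collagen were read from the same fit. Of 54 listed, 52 were on the array and 47 were tested; 3 were higher and 1 lower, against 7.33% and 9.79% of all genes. The median of their means was 0.06, against 0.00 over all genes. Crtap, a partner of prolyl 3-hydroxylase in the endoplasmic reticulum, averaged 0.45 ± 0.21 (SD, n = 8; limma adjusted p = 0.0134). Loxl3, a lysyl oxidase that starts cross-links, averaged 0.88 ± 0.60 (SD, n = 8; limma adjusted p = 0.0156).

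Lair1, an inhibitory collagen receptor of leukocytes, averaged 0.49 ± 0.30 (SD, n = 8; limma adjusted p = 0.0214). Ddr1, a collagen receptor tyrosine kinase of epithelial cells, averaged -0.47 ± 0.22 (SD, n = 8; limma adjusted p = 0.0134). Ddr1 lay below the pool on all 8 first arrays but above it on 2 of 4 swapped arrays. The 15 genes of chain hydroxylation and glycosylation had 1 call, Crtap, and the 7 fibril-binding proteoglycans tested had none; 7 of these 7 were highest on the first array of tumor 3 among the first arrays, against 21.3% of all genes.

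Among the remaining marker lists, Mcam rose in the smooth muscle and pericyte list (0.53 ± 0.45, n = 8), and Epcam and Krt8 of the luminal list were called higher at 0.73 ± 0.69 and 0.84 ± 0.57 (n = 8 each), although both lay below the pool on each of 4 swapped arrays. Cd3e, measured in 4 tumors, and Mbp (-0.39 ± 0.19, n = 8) were called lower (errors are SD). Most of their lists lay on the other side: 5 of 6 leukocyte markers and 3 of 5 Schwann cell markers had means above the pool. The medians of the means were 0.32 and 0.02. No endothelial, adipocyte or skeletal muscle marker was called by limma; means there ran from Kdr at -0.35 to Vwf at 0.70, from Cfd at -0.86 to Cd36 at 0.42, and from Mb at -0.01 to Myh4 at 1.13. All 67 listed markers were on the array and 63 were tested; 5 were called higher and 4 lower, against 7.33% and 9.79% of all genes.

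Some collagen chains carry another name on this array and so fall outside the pattern. Col26a1 was called higher, with a mean of 0.57 ± 0.46 (SD, n = 8, limma adjusted p = 0.0357). Its signal was dim, well above background on 7 of 12 arrays in the tumor and on 4 in the pool. It stood at 1.83 on the first array of tumor 3 and at 1.67 on the swapped array labelled tumor 2. Col6a4 averaged 0.22 and was not called, and Col6a6 did not pass the filter.

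The calls were read again on the first arrays alone, which share 1 dye orientation. There 5 collagen genes were called higher (Col4a2, Col4a4, Col4a6, Col6a2 and Col15a1), against 9.45% of all genes, and 2 lower (Col7a1 and Col10a1), against 12.3%. With the dye term and best-matching tumors, Col4a5 and Col4a6 were called higher, against 3.45% of all genes, and Col7a1 lower, against 4.33%. Without the first array of tumor 3 and the swapped array labelled tumor 2, Col4a2, Col4a6, Col17a1 and Col27a1 were called higher, against 5.52%, and Col7a1, Col8a1 and Col10a1 lower, against 9.33%. Col4a6 and Col7a1 were called in each of these 3 readings. The swapped arrays alone called Col4a1 and Col4a5 higher, against 4.39% of all genes, and Col4a4 lower, against 3.68%. With the slide as a random block, Col4a2 and Col4a6 were called higher, against 3.25%, and Col7a1 lower, against 5.85%. On the first arrays without tumor 3, Col4a2, Col4a4, Col6a2, Col17a1 and Col27a1 were called higher, against 9.32%, and Col10a1 lower, against 12.6%. Within slides, the first arrays of tumors 1 to 4 called Col4a2 higher and none lower, against 2.64% and 2.96% of all genes, and those of tumors 5 to 8 called none, against 0.00983% and 0.0147%.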

How the data were processed

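Total RNA of 8 ShcA-null tumors and of 1 pool of NIC tumors was amplified and hybridised on 12 dual-colour arrays, per the labels' protocols. The deposited scanner files hold spot intensity values from Feature Extraction 9.5.3.1, with 0 or 1 quality flags, and a log10 ratio of red over green, per the file headers. The deposited value table, which the authors made by steps not given in the sources used here, was read as log2 ratios of tumor over pool: its columns follow log2 red over green with a slope of 0.758 to 0.797 on first arrays and -0.748 to -0.715 on swapped ones, so its exact scale and its centring remain unknown. It served as an alternative to the scanner values.

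Mean intensities were background-corrected (normexp, offset 50) and loess-normalized within arrays with control spots at weight 0 (limma 3.58.1, R 4.3.3). Spots marked as outliers were left out, spots of a probe averaged, and both arrays of a tumor averaged, so a tumor is 1 sample. The brightest probe stood for a gene, kept where tumor or pool signal passed the well-above-background flag for 4 tumors or more (20536 genes kept, 20499 tested). limma tested the mean log2 ratio against 0, with Benjamini-Hochberg adjustment over all genes tested and a threshold of 0.05; this leaves out the pool's own spread. The fit was tested on simulated data with independent noise. These held no dye, slide or label effects, so that test cannot show how the fit behaves under them. The labels number the tumors but name no animals, so p-values reflect variation among these 8 samples, which may be technical. The number of arrays limits the precision. Between 63.5% and 77.6% of gene spots were well above background in the tumor channel.

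Named genes are all called members, 12 core chains called or not, and the called genes of the partner and marker lists or else their extremes (1 marker gene is not reported here), with genes outside this rule named after their values were seen. The members and lists were chosen with earlier results of these data known. Probe coordinates are on mm7, and no annotation of that build was used, so exons and untranslated regions are not given. Promoters come from RefSeq. Alternatives are in the closing section.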

Additional observations from a re-analysis of the deposited data

Results flagged for a closer look

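Of the 38 collagen genes, 9 had 1 tumor lying far from the others on the first arrays by Dixon's test; chance marks about 1 in 20 groups. In 7 of the 9 that tumor was tumor 3, at the high end: Col1a1 at 4.32, next 0.50; Col3a1 at 4.07, next 0.81; Col1a2 at 3.62, next 0.62 (7 arrays). Col6a1 stood at 3.12, next 0.72, and Col5a1 at 2.79, next 0.53. Col16a1 stood at 2.68, next 0.67, and Col17a1 at 4.52, next 1.17 (6 arrays). Dixon's test was run on the collagen genes alone, so the 9 cannot be set against a share over all genes. Over all genes tested, tumor 3 was the highest of the first arrays for 21.3% and the lowest for 18.0%. The 7 collagen genes share the array, so they are not independent. The swapped array labelled tumor 2 stood apart for the same genes, between 1.41 for Col1a2 and 3.48 for Col17a1. In the others, Col15a1 was low in tumor 8 at -0.67, next 0.51, and Col4a5 was high in tumor 6 at 1.15, next 0.43.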

How the results depend on the processing

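No paired analysis was possible because the replicate numbers mark the 2 arrays of a tumor and the pool has no numbered samples. The alternatives without the first array of tumor 3 and the swapped array labelled tumor 2, and of the first arrays without tumor 3, were chosen after seeing the data. The 5 collagen genes called higher became 2 on the swapped arrays only, 2 with the dye term and best-matching tumors, 2 with the slide as a random block, 1 on the first arrays of tumors 1 to 4 and 0 on those of tumors 5 to 8; leaving out 1 tumor at a time gave 1 to 5, with 2 without tumor 1, 1 without tumor 2, 3 or 4 and 2 without tumor 7. The 2 called lower became 1 with that dye term (Col7a1), with the slide block (Col7a1) and on the first arrays without tumor 3 (Col10a1); on the swapped arrays only, both were lost and the 1 called lower was Col4a4. There were 0 on the first arrays of tumors 1 to 4 and of tumors 5 to 8; leaving out 1 tumor gave 2 to 3. Over all genes the 3509 calls became 1650 on the swapped arrays only, 1594 with that dye term, 1866 with the slide block, 1129 on the first arrays of tumors 1 to 4 and 5 on those of tumors 5 to 8 (limma), and 1970 to 4573 when 1 tumor was left out, 1970 without tumor 4 and 2268 without tumor 8. Median centring in place of loess moved the median of all genes to 0.18 and gave 2668 higher and 935 lower calls, against 1503 and 2006.

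The 3 partner genes called higher became 6 with median centring, 0 on the swapped arrays only, 1 with the dye term and best-matching tumors, and 0 on the first arrays of tumors 1 to 4 and of tumors 5 to 8, with 2 to 5 when 1 tumor was left out. The 1 partner gene called lower, Ddr1, became 0 with median centring, on the swapped arrays only, with that dye term, with the slide block and on the first arrays of tumors 1 to 4 and of tumors 5 to 8. There were 2 with all kept probes averaged (Ddr1 and Prelp), 2 without the 2 arrays that stand apart (Adamts2 and Prelp, with Ddr1 lost) and 3 on the first arrays without tumor 3 (Ddr1, Adamts2 and Prelp), and 1 to 2 when 1 tumor was left out.

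For Col4a5 with Col4a6, r passed the threshold with the Feature Extraction ratio (0.73), median centring (0.87), the authors' value table (0.73) and both arrays averaged (0.88), and was 0.34 to 0.92 when 1 tumor was left out, 0.34 without tumor 6. For Col6a1 with Col6a2, r was 0.69 with median centring and 0.67 with both arrays averaged, neither past the threshold, and 0.42 to 0.94 when 1 tumor was left out, 0.42 without tumor 3. The other pairs kept their call; when 1 tumor was left out, r was 0.41 to 0.61 for Col4a1 with Col4a2, 0.98 to 0.99 for Col5a1 with Col5a2 and 0.83 to 0.96 for Col6a1 with Col6a3.

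Signs turned for 8 core genes that were not called. With median centring the mean was 0.58 for Col1a1, 0.54 for Col1a2, 0.60 for Col3a1 and 0.23 for Col5a1. On the first arrays of tumors 1 to 4 it was 0.37 for Col1a1, 1.62 for Col1a2, 0.70 for Col3a1 and 0.31 for Col5a1, and on those of tumors 5 to 8 it was -0.014 for Col18a1 and -0.094 for Col6a3. With the slide block it was 0.030 for Col1a1, 0.17 for Col1a2 and 0.013 for Col3a1. With the dye term and tumors as labelled it was 0.10 for Col1a1, 0.0071 for Col1a2 and 0.0019 for Col5a1. With all kept probes averaged it was 0.14 for both Col1a1 and Col5a1, on the swapped arrays only 0.28 for Col1a1, and on the first arrays only 0.44 for Col1a2 and 0.094 for Col3a1. Without the 2 arrays that stand apart it was -0.036 for Col5a2, -0.012 for Col6a1 and -0.059 for Col6a3, and on the first arrays without tumor 3 it was -0.055 for Col5a2 and -0.023 for Col6a3. Leaving out 1 tumor gave -0.42 to 0.091 for Col1a1, -0.33 to 0.063 for Col1a2, -0.41 to 0.11 for Col3a1 and -0.26 to 0.075 for Col5a1. The cause was not tested. None of the 7 called members changed sign in any alternative run. Of their fits, Col7a1 lost its call in 4 of 24, Col4a2 in 4, Col10a1 in 5, Col4a6 in 7, Col4a5 in 11, and Col4a1 and Col6a2 in 15 each.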
